A study of Homo sapiens with 4 samples.

Results

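Amphiregulin (AREG) and betacellulin (BTC), both ligands of the epidermal growth factor receptor (EGFR), and the neurotrophic factors brain derived neurotrophic factor (BDNF) and artemin (ARTN) were examined in A375 human melanoma cells and their vemurafenib-resistant derivative. The 4 genes were selected by name, with earlier results of these data known, and all 4 had values among the 2864 genes of the table. RNA was sequenced from 4 cultures of this established cell line, which carries the BRAF-V600E mutation targeted by the kinase inhibitor vemurafenib, with 1 library per condition. The conditions were untreated parental cells (A375P), the resistant strain kept continuously under vemurafenib after dose escalation (A375R), A375 cells given the solvent DMSO (1‰) for 48 h (A375+DMSO) and A375 cells given 2 μM vemurafenib for 48 h (A375+VEM). All were labelled wild type, grown in the same serum-supplemented medium and given the same batch label. Whether A375R descends from a single clone was not stated. With 1 library per condition there is no replicate check, so no p-value is given and each difference below is one between libraries. In such bulk RNA, fewer cells that express a gene and less RNA per cell cannot be told apart.

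EGFR ligands are made as membrane-bound precursors. Metalloproteinases of the ADAM family cut them free, after which they bind EGFR on the same or neighbouring cells and activate the RAS/MAPK and PI3K-AKT routes. AREG binds EGFR only, whereas BTC also binds ERBB4. BDNF is a neurotrophin that signals through the receptor TrkB and the low-affinity receptor p75NTR, and ARTN is a member of the GDNF family that signals through GFRα3 and RET. In melanoma, ligands of receptor tyrosine kinases are known as a bypass around blocked BRAF.

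The authors deposited a read count and a TPM (a transcript level that corrects the count for gene length and brings every whole library to the same sum) for each gene. The genes analysed here are those whose names come first in the alphabet, so the receptors EGFR, ERBB4, NTRK2, NGFR, GFRA3 and RET and the other EGFR ligands were not analysed here. The reads of these genes summed to between 1891215 and 2054277 per library, and their TPM made up between 8.48% and 8.94% of each library. Of 4 melanoma markers 3 reached a TPM of 1 in some library, led by BACE2 and APOE, while ABCB5 had between 0 and 6 reads and BIRC7 reached 1 TPM only in A375+VEM. None of 6 immune markers reached 1 TPM in any library, with a summed level between 0.346 and 1.04 TPM. Of 4 keratinocyte markers 3 reached that level, with sums between 6.17 and 13.4 TPM, as did all 3 endothelial markers, with sums between 5.60 and 14.6 TPM. Both sums were highest in A375P and lowest in A375+DMSO, and their part in the results below was not tested.

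AREG and BTC lie on the same chromosome arm, 349242 bp apart. On hg19, the build named in the submitters' processing notes, AREG occupies chromosome 4 from 75310815 to 75320726 on the plus strand, and BTC chromosome 4 from 75669969 to 75719896 on the minus strand. The feature that makes both of them EGFR ligands is the EGF-like module, in which 6 cysteines at fixed distances form the receptor-binding fold. The coding bases of this module are shown because they are what the pair shares, with the cysteine codons in capitals (GENCODE 29, GRCh38). The positions include the intron between the exons, whose bases are left out.
AREG, chr4:74449172-74450410, plus strand: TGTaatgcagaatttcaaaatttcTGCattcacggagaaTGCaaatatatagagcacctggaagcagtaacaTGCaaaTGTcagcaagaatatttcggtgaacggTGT
BTC, chr4:74750689-74755935, minus strand: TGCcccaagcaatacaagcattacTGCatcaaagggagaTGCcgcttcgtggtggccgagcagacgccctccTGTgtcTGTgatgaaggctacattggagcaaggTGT
In both genes the module was 108 bases long, was split between exons 3 and 4 and had the same distances of 7, 4, 10, 1 and 8 codons between successive cysteine codons. Aligned without gaps, 52 of 108 bases (48.1%) were identical. AREG itself has an older synonym, AREGB, that refers to a near-identical second copy on hg19. No values of this copy were analysed here, and how reads were divided between the copies is not known.

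A375P held 81 AREG reads, A375R 238, A375+DMSO 85 and A375+VEM 1. In that order the level of AREG was 7.41, 24.1, 8.33 and 0.099 TPM. A375R was therefore the highest library and A375+VEM the lowest, and the single read of A375+VEM has an exact 95% Poisson interval of 0.0025 to 0.55 TPM. Between A375R and A375P the level was 3.25-fold higher in A375R, with an exact 95% Clopper-Pearson interval on the reads from 2.52 to 4.24. All such intervals compare 2 libraries and cover counting error only. Against A375+DMSO, A375R was 2.89-fold higher (interval 2.25 to 3.75), so the higher level of the resistant strain was found against either library without vemurafenib. These controls differed by a ratio of 1.12 (interval 0.82 to 1.54), so no difference in AREG was detectable between them at this depth. Set against A375+DMSO, the level of A375+VEM was 84.4-fold lower, with a wide interval from 14.7 to 3373 that follows from the single read. Between the library under long-term vemurafenib and the library under 48 h of it, the difference was 244-fold (interval 43.4 to 9682).

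A375P held 45 BTC reads, A375R 44, A375+DMSO 15 and A375+VEM 102. This corresponded to 1.86, 2.02, 0.67 and 4.56 TPM in that order. A375+VEM was the highest library and A375+DMSO the lowest, while A375P and A375R could not be told apart (ratio of A375R to A375P 1.08, interval 0.70 to 1.68). The level of A375+VEM was 6.85 times that of A375+DMSO (interval 3.96 to 12.7). The size of this difference rests in part on the low value of A375+DMSO, since against A375P the level in A375+VEM was 2.45-fold higher (interval 1.71 to 3.56). A375R was 3.03-fold above A375+DMSO (interval 1.65 to 5.86).

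AREG was the main one of these EGFR ligands in every library except A375+VEM. AREG made up 79.9% of the summed TPM of AREG and BTC in A375P (interval 73.2% to 85.4%), 92.3% in A375R (interval 89.6% to 94.4%) and 92.6% in A375+DMSO (interval 87.8% to 95.9%). In A375+VEM it made up 2.12% (interval 0.054% to 11.0%). Both ligands summed to 9.27 TPM in A375P and 9.0 TPM in A375+DMSO, against 26.1 TPM in A375R and 4.66 TPM in A375+VEM. Per gene length, BTC was thus the lower of the pair in 3 libraries and the higher one in A375+VEM.

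The promoters of the EGFR ligands are shown because the genes differed in opposite directions in A375+VEM (RefSeq, GRCh38.p14, 250 bases before to 50 bases after the annotated start). Capitals mark matches on either strand to the motifs searched, which were the cyclic AMP response element TGACGTCA, the AP-1 site TGANTCA, the TEAD motif GGAATG, the ETS motif GGAAGT, the TATA box TATAAA and the E-box CACGTG.
AREG, chr4:74444886-74445185, plus strand: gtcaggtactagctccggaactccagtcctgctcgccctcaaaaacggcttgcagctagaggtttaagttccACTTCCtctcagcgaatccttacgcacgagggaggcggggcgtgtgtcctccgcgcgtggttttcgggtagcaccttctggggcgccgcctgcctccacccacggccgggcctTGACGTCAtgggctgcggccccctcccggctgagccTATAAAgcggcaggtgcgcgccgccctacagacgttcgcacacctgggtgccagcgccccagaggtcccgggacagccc
BTC, chr4:74794474-74794773, minus strand: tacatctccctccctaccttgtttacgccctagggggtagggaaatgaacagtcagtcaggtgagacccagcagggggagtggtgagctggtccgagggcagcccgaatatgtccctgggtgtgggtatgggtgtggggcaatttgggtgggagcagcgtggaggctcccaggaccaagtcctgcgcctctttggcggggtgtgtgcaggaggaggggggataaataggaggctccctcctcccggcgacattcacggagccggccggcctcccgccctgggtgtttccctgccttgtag
The AREG window held the cyclic AMP response element at position -65 from the start, the TATA box at -29 and an ETS match, on the other strand, at -178. Of 35116 such windows over all genes, 1.85% held the cyclic AMP response element, 11.5% the TATA box and 22.8% the ETS motif. The BTC window held none of the 6 motifs, nor did that of ARTN. AP-1 sites were in 7.71% of all windows, TEAD motifs in 14% and E-boxes in 7.26%. How many windows held none of the 6 was not computed. BDNF has 5 windows, against 1 for each of the other genes, which gives it more room for a match. Among them there were ETS matches and an E-box, and some of them held none of the 6 motifs. A match describes letters in a window and does not show a bound factor.

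A375P held 1446 BDNF reads, A375R 270, A375+DMSO 160 and A375+VEM 130. In that order the level of BDNF was 21.8, 4.51, 2.59 and 2.12 TPM. A375P was the highest library, followed by A375R, with A375+DMSO and A375+VEM lowest. BDNF was 4.84-fold lower in A375R than in A375P (interval 4.25 to 5.53), but it was also 8.43-fold lower in A375+DMSO than in A375P (interval 7.16 to 9.99), although neither A375+DMSO nor A375P received vemurafenib. Compared with A375+DMSO, A375R was 1.74-fold higher (interval 1.43 to 2.13), and against A375+VEM it was 2.13-fold higher (interval 1.72 to 2.65). The direction of the difference in the resistant strain thus depended on which library without vemurafenib served as the control. Between A375+VEM and A375+DMSO the ratio was 0.82 (interval 0.64 to 1.04), and no difference was detectable at this depth. On the scale of TPM + 0.1, A375P was 4.75-fold above the next library. Of 1817 genes that reached 1 TPM in some library, 144 (7.93%) had A375P more than 1.5-fold above each of the other 3, and 2 of them by more than BDNF.

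BDNF spans bases 27676440 to 27743605 of chromosome 11, minus strand (hg19). The lncRNA BDNF-AS, transcribed from the opposite strand (27528399 to 27719718), overlaps 43279 bp of it, or 64.4% of its span. Whether reads were counted by strand was not given in the sources used here, so reads in the overlap cannot be assigned to either gene with certainty. A375P held 45 BDNF-AS reads, A375R 16, A375+DMSO 21 and A375+VEM 65, or 1.72, 0.68, 0.86 and 2.68 TPM. Unlike BDNF, it was highest in A375+VEM, 3.12-fold above A375+DMSO (interval 1.88 to 5.37). Against A375P the level of BDNF-AS in A375+VEM was 1.56-fold higher (interval 1.05 to 2.33), so the size of this difference depended on the control. Per gene length BDNF was 12.7-fold above BDNF-AS in A375P, 6.66-fold in A375R and 3.01-fold in A375+DMSO. In A375+VEM the ratio was 0.79 (interval 0.58 to 1.08), so the sense and antisense genes were at levels that could not be told apart. RefSeq lists 5 start windows for BDNF and 1 for each of the other 3 genes. The deposited counts are per gene, so the BDNF reads could not be assigned to a start.

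ARTN, at bases 44398992 to 44402912 of chromosome 1, plus strand (hg19), had 120 reads for A375P, 29 for A375R, 19 for A375+DMSO and 86 for A375+VEM. These were 7.20, 1.93, 1.22 and 5.57 TPM. The libraries fell into a higher pair, A375P and A375+VEM, and a lower pair, A375R and A375+DMSO. Within the higher pair the ratio of A375P to A375+VEM was 1.29 (interval 0.97 to 1.73), and within the lower pair that of A375R to A375+DMSO was 1.58 (interval 0.85 to 2.98), so neither order was resolved by the reads. A375R was 3.74-fold below A375P in ARTN (interval 2.47 to 5.82). A375+VEM was 4.56-fold above A375+DMSO (interval 2.75 to 7.94). As with BDNF, A375+DMSO was itself lower than A375P, by 5.89-fold (interval 3.61 to 10.1). BDNF made up 75.2% of the summed TPM of the 2 neurotrophic factors in A375P, 70.1% in A375R and 67.9% in A375+DMSO, against 27.5% in A375+VEM (interval 22.3% to 33.6%). ARTN was therefore the higher of these factors in A375+VEM alone.

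**Figure D1:**
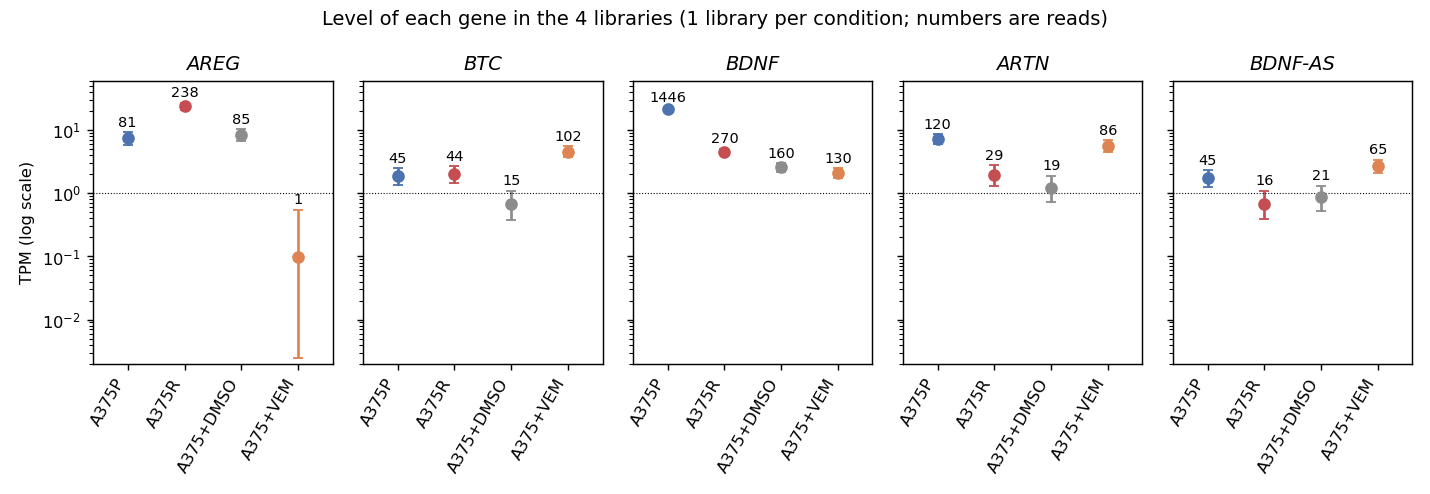
TPM (log axis) of the 4 genes and BDNF-AS in each library, with exact 95% Poisson intervals from the reads and the number of reads above each point; the dotted line is 1 TPM. AREG was at 24.1 TPM in A375R and 0.099 TPM in A375+VEM, BTC was highest in A375+VEM, BDNF in A375P, and ARTN in A375P and A375+VEM.

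For the count over all 4 genes, a ratio of (TPM + 0.1) past 1.5-fold between libraries was called a difference, and genes below 1 TPM in both libraries of a comparison were left out. All 4 genes passed this filter in each of the 6 comparisons. Between A375R and A375P, 3 of the 4 were called, with AREG higher and BDNF and ARTN lower. Of all 1689 genes tested, 44.3% were called, 26.8% higher and 17.5% lower. Between A375+VEM and A375+DMSO, 3 of the 4 were called, with AREG lower and BTC and ARTN higher, against 46.2% of 1784 genes (26.5% higher and 19.7% lower). Between A375+DMSO and A375P, 3 were called as well, all lower in A375+DMSO, against 45.7% of 1720 genes (26.8% higher and 18.9% lower). For A375+VEM against A375P the call held for BTC, which was higher, and for AREG and BDNF, which were lower, where 62.1% of 1782 genes were called (36.9% higher and 25.3% lower). For A375+VEM against A375R it held for all 4, with BTC and ARTN higher and AREG and BDNF lower, where 54.7% of 1773 genes were called (30.8% higher and 23.9% lower). Counts of 3 or 4 among 4 genes, set against such shares, do not single these genes out.

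The size of the ratios varied among the 4 genes, which were chosen with earlier results of these data known. The median absolute log2 ratio of the 4 genes was 1.77 between A375R and A375P, where that of all genes tested was 0.51. It was 2.35 between A375+VEM and A375+DMSO (0.52 for all genes) and 1.91 between A375+DMSO and A375P (0.53 for all genes). In these medians and in the ranks that follow, all genes tested were not matched to the 4 for level or number of reads. AREG, at a log2 ratio of -5.41 between A375+VEM and A375+DMSO, had 3 of 1784 genes below it. BTC at 2.61 had 30 genes above it in that comparison, and ARTN at 2.10 had 67. BDNF at -0.28 was within the bulk of the table, with 531 genes below it. Between A375R and A375P, BDNF at -2.25 had 16 of 1689 genes below it, ARTN at -1.85 had 31 below it, and AREG at 1.69 had 99 above it. BTC at 0.11 lay in the middle, with 850 genes below and 838 above it.

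**Figure D2:**
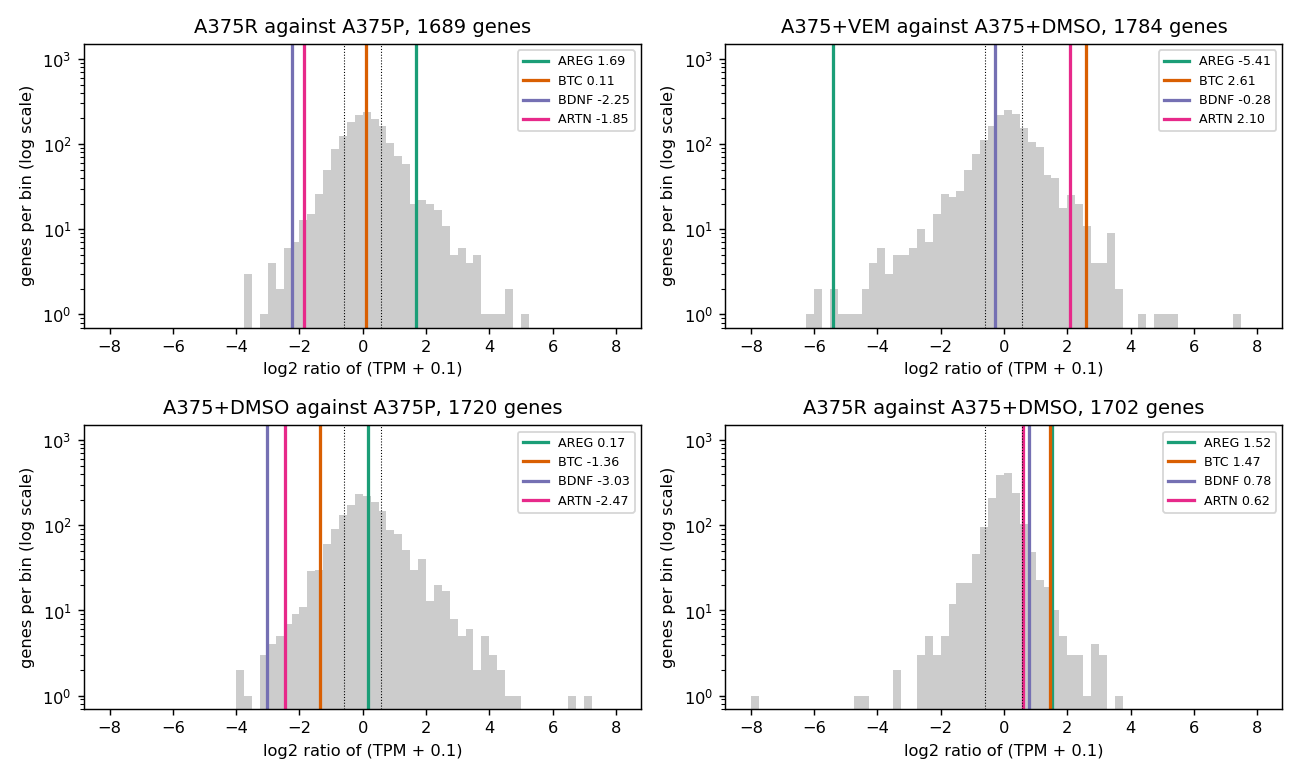
Log2 ratio of (TPM + 0.1) of all genes tested (grey bars, genes per bin on a log axis) in 4 comparisons, with the 4 genes as coloured lines and 1.5-fold as dotted lines. AREG lies at -5.41 between A375+VEM and A375+DMSO, in the far left tail, and BDNF at -3.03 between A375+DMSO and A375P.

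Set against A375+DMSO, the resistant strain was past 1.5-fold higher in all 4 genes, where 20.5% of 1702 genes were called (10.5% higher and 9.99% lower). The log2 ratios of (TPM + 0.1) were 1.52 for AREG, 1.47 for BTC, 0.78 for BDNF and 0.62 for ARTN. The count rests on low levels and on few reads of ARTN, whose interval included a ratio of 1. With a TPM of at least 5 required, AREG was the only one of the 4 called, and at a threshold of 2-fold AREG and BTC were called. This comparison shares A375R with the first one and A375+DMSO with the acute pair, so it is not independent of either.

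**Figure D3:**
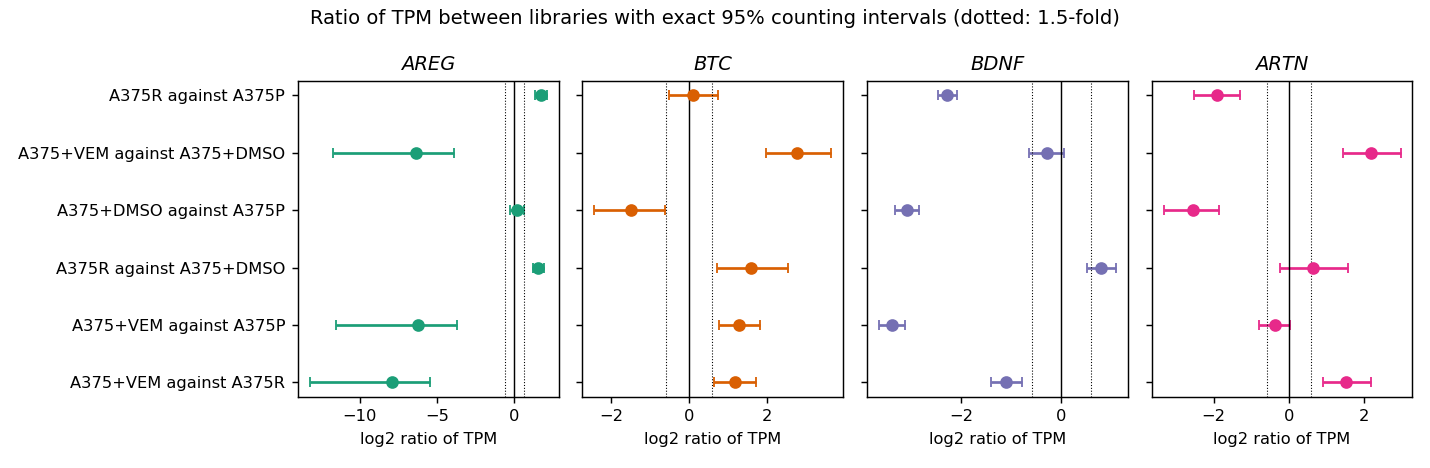
Log2 ratio of TPM between 2 libraries for each of the 4 genes (points) with exact 95% Clopper-Pearson intervals on the reads, for 6 comparisons that share libraries; dotted lines mark 1.5-fold and the horizontal axes differ in range. AREG was higher in A375R against either control, whereas BDNF and ARTN in A375R were below A375P. Against A375+DMSO they were at 0.78 and 0.62 on the scale of (TPM + 0.1), and the interval of ARTN included a ratio of 1.

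AREG and ARTN were past 1.5-fold in opposite directions in the resistant and the acute pair, which share no library. AREG was higher in A375R and lower in A375+VEM, a pattern shown by 112 of 1656 genes tested in both pairs (6.76%). ARTN was lower in A375R and higher in A375+VEM, as were 88 genes (5.31%). For ARTN this held only with these controls, since its log2 ratio was 0.62 for A375R against A375+DMSO and -0.36 for A375+VEM against A375P, and the intervals of both ratios included 1. BTC was past the threshold in the acute pair and not in the resistant pair, and BDNF in the resistant pair and not in the acute pair. None of the 4 genes was past it in the same direction in both pairs, as 122 genes (7.37%) were upward and 46 (2.78%) downward.

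The metalloproteinases that can release EGFR ligands were measured in the same libraries. ADAM17, known as the main enzyme for AREG, was at 40.1, 53.0, 51.0 and 66.2 TPM in A375P, A375R, A375+DMSO and A375+VEM. ADAM10, known to release BTC, was at 43.7, 65.3, 62.6 and 121 TPM in the same order. ADAM10 was past 1.5-fold between A375+VEM and A375+DMSO (log2 ratio 0.96) and ADAM17 was not (0.38). Of the 7 ADAM genes listed, 2 were higher and 1 lower in A375R than in A375P, where 26.8% of all genes were higher and 17.5% lower, and the median log2 ratio was 0.40 against 0.10 for all genes. The level of ADAM19 was 3.82, 140.05, 25.8 and 14.2 TPM, again in that order. ADAM12 was higher in A375R than in A375P by a log2 ratio of 1.06, and ADAM8 was at -0.66. Both calls depended on the control, since against A375+DMSO these genes were at -0.34 and 0.21. ADAM9 and ADAM15 were at 0.37 and 0.20. Between A375+VEM and A375+DMSO, 2 of the 7 were higher (ADAM8 and ADAM10) and 2 lower (ADAM9 at -0.78 and ADAM19 at -0.86), against 26.5% and 19.7% of all genes, while ADAM12 was at 0.44 and ADAM15 at -0.57.

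Genes that act below the ErbB and neurotrophin receptors did not differ in one direction. Of 14 such genes, 3 were higher and 4 lower in A375R than in A375P (median log2 ratio 0.16), so that 7 of 14 were called where 44.3% of all genes were. In the acute pair 1 was higher and 2 were lower (median -0.02, against 0.11 for all genes), or 3 of 14 called where 46.2% of all genes were. The kinase gene ABL2 was at 226, 94.99, 46.5 and 31.0 TPM in A375P, A375R, A375+DMSO and A375+VEM, the same order of libraries as BDNF. BCL2, which protects cells from apoptosis, was at 8.88, 4.35, 3.57 and 0.51 TPM. ARHGDIB was higher in A375R than in A375P by a log2 ratio of 1.44, and its relative ARHGDIA was at -1.13. A375+DMSO differed from A375P likewise, at 1.44 and -1.39, and neither gene was past 1.5-fold between A375R and A375+DMSO. BRAF itself, the target of vemurafenib, was at 28.2, 30.2, 20.3 and 19.7 TPM in that order and was not past 1.5-fold in the resistant or the acute pair.

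Of 7 genes of receptor endocytosis, 4 were higher in A375R than in A375P and none was lower, with a median log2 ratio of 0.79, where 26.8% of all genes were higher and 17.5% lower. They were ARRB1 at 1.83, ARRB2 at 0.90 (both β-arrestins), and the AP-2 adaptor subunits AP2A2 at 0.89 and AP2A1 at 0.79. Between A375R and A375+DMSO none of the 7 was past 1.5-fold, where only 20.5% of all genes were called. In A375+DMSO, 5 of the 7 were higher than in A375P, where 26.8% of all genes were higher. Between A375+VEM and A375+DMSO 1 was higher, AP2A2 at 0.59, which is next to the threshold, and none was lower. Of all genes, 26.5% were higher and 19.7% lower in that comparison.

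Among 23 other secreted ligands, 15 passed the filter between A375R and A375P, of which 3 were higher and 4 lower (median log2 ratio 0.22), or 7 of 15 called where 44.3% of all genes were. In the acute pair 16 passed, of which 3 were higher and 8 lower (median -0.49), against 26.5% higher and 19.7% lower over all genes. The vasodilator peptide gene ADM was at 88.7 TPM in A375P, 18.2 TPM in A375R and 21.7 TPM in A375+DMSO, so it was lower than A375P in both of the latter and not past 1.5-fold between them. In A375+VEM it was at 5.07 TPM, below either library without vemurafenib. The related ADM2 was at 36.9 TPM in A375+DMSO and 1.66 TPM in A375+VEM. BMP7, a bone morphogenetic protein, was lower in A375+VEM than in A375+DMSO by a log2 ratio of -2.12. That difference depended on the control, since BMP7 was at 0.35 TPM in A375P and 0.53 TPM in A375+VEM. ANGPT4, a ligand of the TIE2 receptor, had 43 reads in A375+DMSO and 2 in A375+VEM (log2 ratio -3.02). AREG was thus not the only secreted factor with a low level after 48 h of vemurafenib, and its log2 ratio of -5.41 lay below the -4.40 of ADM2. BMP2 was higher in A375R at a log2 ratio of 1.28 and lower in A375+VEM at -0.70, the same directions as AREG. Of 4 early response genes, 3 were lower in A375R than in A375P (BTG2 at -2.31, ARC at -1.36 and BHLHE40 at -0.79), and the same 3 were lower in A375+DMSO than in A375P, at -2.76, -2.56 and -2.03. The share of all genes that were lower was 17.5% and 18.9% in these comparisons. Against A375+DMSO, 3 of the 4 were higher in A375R (ARC at 1.20, BHLHE40 at 1.24 and ATF3 at 0.68), where 10.5% of all genes were. ARC, a neuronal activity gene, was also lower in A375+VEM than in A375+DMSO, at -1.56, and ATF3 was past 1.5-fold in neither the resistant nor the acute pair.

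**Figure D4:**
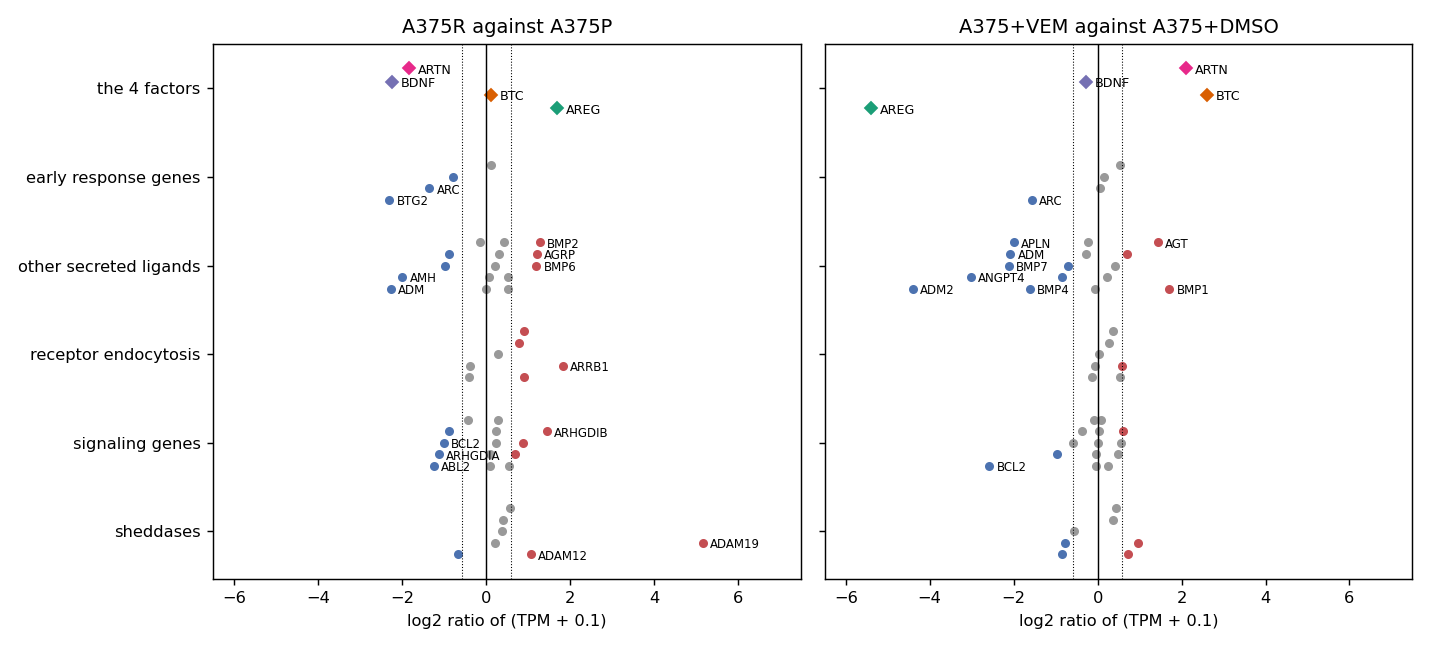
Log2 ratio of (TPM + 0.1) of the genes in 5 lists (red higher, blue lower, grey within 1.5-fold; names shown beyond 1.0) and of the 4 factors (diamonds) in the resistant and the acute pair. ADAM19 at 5.16 is the highest point in the resistant pair, and AREG at -5.41 the lowest in the acute pair, below ADM2 at -4.40.

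The genes whose pattern over the 4 libraries was most like that of each factor were found by the root mean square difference of log2(TPM + 0.1) after each gene's own mean was subtracted, among 1816 other genes. AREG was closest to ARL14EPL (0.46), BUB1B (0.59), ASNSP1 (0.62), AURKB (0.71) and BLM (0.74). BUB1B and AURKB act in mitosis and BLM is a DNA helicase. All 5 had few reads in A375+VEM, from 2 for ARL14EPL to 37 for AURKB, which the choice by similar pattern makes likely. ASNSP1 is a pseudogene. BUB1B, at 1146, 1271, 1283 and 20 reads in A375P, A375R, A375+DMSO and A375+VEM, shared the low level in A375+VEM with AREG but not the difference between A375R and A375+DMSO.

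BTC was closest to C11orf91 (0.17), the pseudogenes AQP7P3 (0.19) and ANKRD20A13P (0.20), the glycosyltransferase gene B3GNT9 (0.26) and the reductase gene AKR1B10 (0.27). Each of these 5 had its lowest level in A375+DMSO and its highest in A375+VEM, which the choice by similar pattern makes likely. Some had few reads, with 5, 7, 2 and 14 for ANKRD20A13P in A375P, A375R, A375+DMSO and A375+VEM. BDNF was closest to AVPI1 (0.30), ABCA13 (0.34), ABL2 (0.37), BTNL8 (0.40) and the transcriptional repressor gene BHLHE41 (0.42), all highest in A375P. AVPI1 was at 559, 196, 106 and 66.5 TPM in A375P, A375R, A375+DMSO and A375+VEM, with at least 735 reads in each. ARTN was closest to ADCY10P1 (0.27), ADORA2A (0.28), ABCB9 (0.30), CABLES1 (0.31) and ADORA2A-AS1 (0.33). ADORA2A encodes an adenosine receptor and ABCB9 a lysosomal peptide transporter. CABLES1 had 1367, 273, 317 and 1263 reads in the same order.

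Among the 4 factors, BTC and ARTN were the most alike (0.74), with BTC at place 133 of 1816 among the genes nearest to ARTN and ARTN at place 184 among those nearest to BTC. AREG and BTC, neighbours on chromosome 4 and ligands of the same receptor, were the least alike (3.32). AREG and ARTN were close behind (3.27), and the distances of AREG rest in part on its single read in A375+VEM. With 4 libraries these differences describe the pattern and carry no test.

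**Figure D5:**
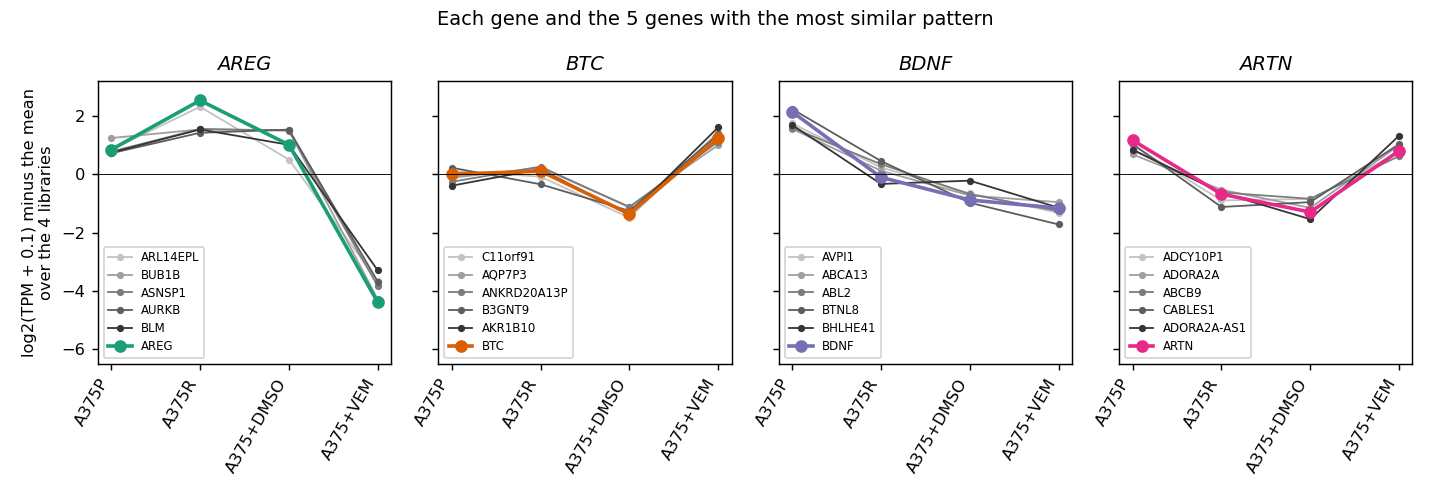
Log2(TPM + 0.1) minus the gene's mean over the 4 libraries, for each factor (colour) and the 5 genes with the most similar pattern (grey); lines join the values of 1 gene and the libraries have no order. All 5 genes nearest to AREG were lowest in A375+VEM, those nearest to BTC lowest in A375+DMSO, and those nearest to BDNF highest in A375P. The choice by similar pattern makes such sharing likely.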

How the data were processed

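RNA was extracted with Trizol and sequenced from 4 cultures, with 1 library per condition taken from the labels. The authors deposited whole-number read counts per gene without normalization. The authors also deposited TPM, which was the count per gene length times 1 constant per library. The submitters' processing notes name HISAT2, TopHat2, Bowtie2, HISAT and hg19, without roles or versions. The counting program and its strand setting were not given in the sources used here. One incomplete row of 2865 was left out. Of 2653 gene names shared with a GRCh38 annotation, 9 had the same start or end, so gene positions are given on hg19 and sequences on GRCh38.

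Pairs of libraries were compared by the ratio of (TPM + 0.1) with a threshold of 1.5-fold, and genes below 1 TPM in both were left out. The pseudocount makes ratios of low genes smaller than they are. Folds of single genes are ratios of TPM without the pseudocount. Intervals at 95% are exact for independent reads and cover counting error only, since there are no replicates. Reads without molecular identifiers are not independent molecules, so the intervals may be too narrow even for that error. The libraries under vemurafenib were not pooled for a test, because they are different conditions. The rule for named genes was all 4 factors, overlapping genes, the 5 genes nearest in pattern to each, all ADAM genes listed, and the largest differences of the other lists, at most 4 a list. BRAF, BMP2, ATF3 and the neighbouring genes on the chromosomes were added after their values were seen. The 4 factors and the lists were chosen with earlier results of these data known. Only the ratio, the call and the interval were tested on simulated data, with Poisson counts. Changes in genes with few reads, variation between libraries, and the pattern, motif and list steps were not covered. Alternatives were other pseudocounts, filters, thresholds, controls and scalings, including TMM factors from edgeR. Python 3.11.15, numpy 2.4.6, pandas 2.3.3, scipy 1.17.1, matplotlib 3.10.9, R 4.3.3 and edgeR 4.0.16 were used.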

Additional observations from a re-analysis of the deposited data

Results flagged for a closer look

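AREG and ARTN were each past 1.5-fold in opposite directions in the resistant and the acute pair. For AREG the log2 ratio of (TPM + 0.1) was 1.69 between A375R and A375P, and -5.41 between A375+VEM and A375+DMSO. For ARTN these log2 ratios were -1.85 and 2.10. With the other control its direction turned in each case, to 0.62 for A375R against A375+DMSO and to -0.36 for A375+VEM against A375P, although the reads did not resolve either ratio from 1. Neither difference between pairs was tested, as each condition has 1 library.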

How the results depend on the processing

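With 1 library per condition no library could be left out. No paired analysis was possible because each condition has a single library and the labels give no replicate numbers. Under other pseudocounts and scalings, 63 of 64 log2 ratios of the 4 factors kept their direction and their side of 1.5-fold, the exception being ARTN in A375R against A375+DMSO with a pseudocount of 1 TPM (0.40). The control mattered more. With A375+DMSO as the control of A375R, the log2 ratio was 0.78 for BDNF and 0.62 for ARTN, both reversed, and 1.47 for BTC. With A375P as the control of A375+VEM it was -0.36 for ARTN, which reversed, 1.25 for BTC and -3.31 for BDNF. The intervals of both reversed ratios of ARTN included 1, so the reads did not resolve their direction. A pseudocount of 1 TPM, which by construction shrinks ratios of low genes, gave -3.09 for AREG and 1.74 for BTC in A375+VEM against A375+DMSO, -2.05 for BDNF in A375R against A375P and -2.67 for BDNF in A375+DMSO against A375P. Of the 4 factors called in A375R against A375+DMSO, 1 was left with a TPM of at least 5 and 2 at a threshold of 2-fold. The filter of 5 TPM also removed BTC from A375+VEM against A375+DMSO and from A375+DMSO against A375P, since BTC was below that level in every library. Scaling to a median ratio of 1 shifted log2 ratios by between -0.11 and -0.02, and TMM factors by between -0.15 and 0.0031. The 1 endocytosis gene called in the acute pair (AP2A2) was not called under either scaling. Of 140 counts of listed genes under these alternatives, 21 moved by over 1.5 times. The alternatives for A375R against A375+DMSO and for the gene lists were chosen after seeing the data. The depth of the libraries as a whole is not known, and for AREG in A375+VEM the single read limits the size of the difference.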

Other observations

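A window of 500 kb on either side of each factor, chosen after the values were seen, held few other genes of the table. ATP6V0B, a subunit gene of the vacuolar ATPase 37407 bp from ARTN on chromosome 1 (44440320 to 44443972, hg19), was at 183, 77.5, 74.1 and 123 TPM in A375P, A375R, A375+DMSO and A375+VEM. Like ARTN, it was lower in A375R than in A375P (log2 ratio -1.24) and, in the acute pair, higher in A375+VEM (0.73). The next gene, B4GALT2, which encodes a galactosyltransferase, was at -0.25 and -0.90 in these comparisons. BBOX1-AS1, a lncRNA 434779 bp from BDNF on chromosome 11, had no reads in A375P or A375R, whereas A375+DMSO held 4 and A375+VEM 28.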
